A study of Homo sapiens with 2 samples.

Results

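Alu clusters with a close Alu cluster on the same strand are the places where ADAR1 was mapped to more than one Alu stretch within a short distance. They were chosen by position alone: a cluster of the authors' Alu class was taken when at least 1 other Alu cluster on the same chromosome and strand had its nearest edge within 1000 bases. Of 20200 Alu clusters in a deposited list of 23782 clusters, 912 met this rule, which is 4.51% of the Alu class (Wilson 95% interval 4.24 to 4.81%). They formed 448 groups, joined by 464 gaps, and occurred on all 24 chromosomes of the list. The other 19288 Alu clusters served for comparison.

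The study used CLIP-seq, in which ultraviolet light links a protein to the RNA it touches before both are pulled down with an antibody and the RNA is sequenced. The cells were U87MG, a human glioblastoma cell line also labelled as astrocytoma. The 2 libraries, labelled AB1 and AB2, came from that line at passage 6, and the labels name no treatment other than the crosslinking on ice. Both carry the same catalogue entry for a mouse monoclonal antibody against ADAR1, although the study's design speaks of different antibodies. The single list gives positions on build hg19, strand and class for each cluster but no read count, score or library, so the values below have no replicates, AB1 and AB2 could not be compared, and the depth behind a cluster is unknown.

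ADAR1 is an RNA-editing enzyme that binds double-stranded RNA and converts adenosine to inosine. Alu elements are primate retrotransposons present in very many copies, and much of human A-to-I editing falls in them. When neighbouring copies in opposite orientation are transcribed into the same RNA they can pair and form the duplex that ADAR1 recognises. The strand of a CLIP cluster is the strand of the RNA and not the orientation of the repeat, so neighbouring clusters on 1 strand may lie in Alu copies of equal or opposite orientation, or in the same copy. Orientation, sequence, gene and transcript were not analysed here, because no hg19 sequence or annotation was used.

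Nearly all groups were pairs. Of the 448 groups, 433 held 2 clusters (96.7%, Wilson interval 94.5 to 98.0%), 14 held 3 (3.12%) and 1 held 4 (0.223%). Pairs thus accounted for 866 of the 912 members, trios for 42 and the largest group for 4. The outer span of a pair, from its first to its last base, had a median of 838 bases (95% order-statistic interval 796 to 878) and ranged from 118 to 1565 bases. The 14 trios spanned a median of 1565.5 bases, from 956 to 2469. Clusters covered a median of 44.6% of a group's span (interval 42.0 to 47.3%), with a lowest value of 20.3% and a highest of 99.4%.

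The only group of 4 lay on the plus strand of chromosome 16, from 89967846 to 89969177 (hg19), and spanned 1332 bases. In the direction of its strand its clusters were 183, 131, 144 and 206 bases long, and the gaps between them were 313, 55 and 300 bases. The inner clusters were therefore much closer to each other than to the outer ones, and the 4 clusters together covered 49.8% of the stretch. The 14 trios were described after their values had been seen. Together with the group of 4 they lay on 10 chromosomes, and 7 of the 15 were on chromosome 16 or 17. Of all 448 groups, 14 were on chromosome 16 and 41 on chromosome 17, which held 3.45 and 5.79% of the Alu clusters. These chromosomes were picked with the values in view.

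Trios ranged from nearly continuous to widely spaced. The most compact lay on the plus strand of chromosome 15, from 64833005 to 64833960. It had clusters of 283, 353 and 206 bases with gaps of only 31 and 83 bases, so that 88.1% of its 956 bases were covered. The widest was on chromosome 22 (minus strand, 29119409 to 29121877). Its clusters of 197, 153 and 170 bases, in order of coordinate, were separated by 962 and 987 bases, and 21.1% of its 2469 bases were covered. Chromosome 17 had 4 trios, all on the minus strand, which began at 604704, 1982278, 17933448 and 36930835 and spanned 1733, 1978, 1666 and 1299 bases. None of these 4 had a gap under 100 bases, and their shortest gap was 294 bases.

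**Figure D1:**
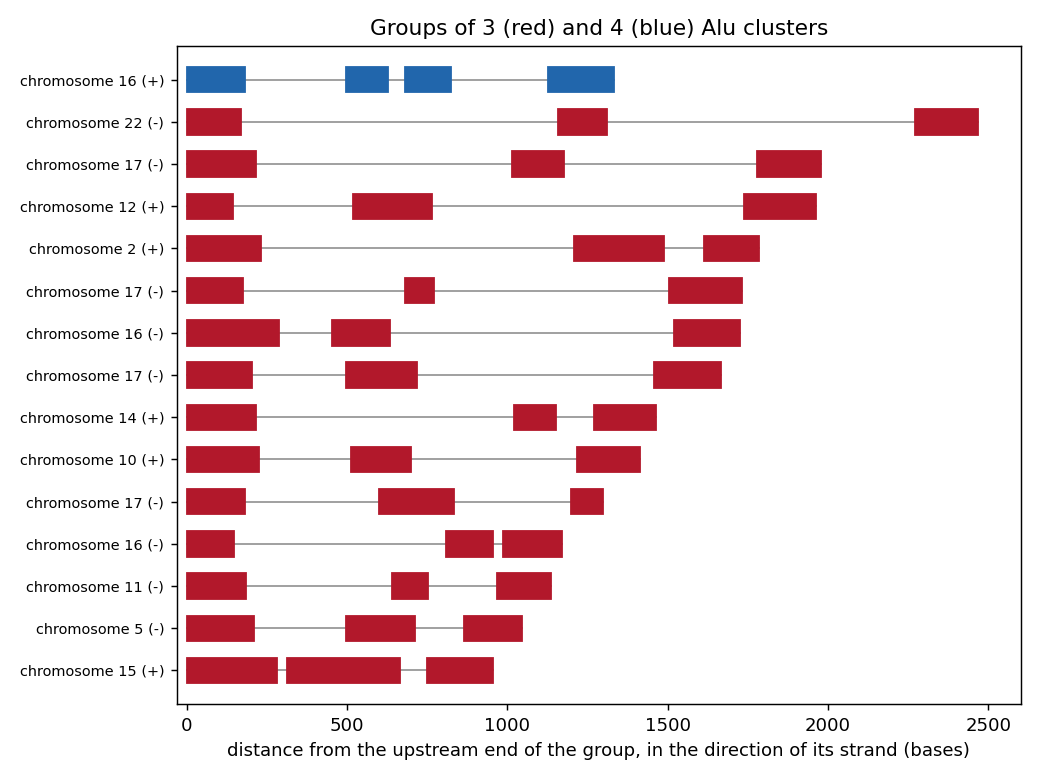
Layout of the 14 groups of 3 Alu clusters (red) and the 1 group of 4 (blue). The horizontal axis is the distance in bases from the upstream end of the group in the direction of its strand, boxes are clusters drawn to scale and lines are gaps; groups of 3 are ordered by span, from 956 bases on chromosome 15 to 2469 bases on chromosome 22.

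Gaps took up every part of the allowed range, with a surplus at the short end. The gap, counted as the bases between the end of 1 cluster and the start of the next, had a median of 456.5 bases (order-statistic interval 402 to 504), quartiles of 195 and 707 bases, a lowest value of 2 and a highest of 997. Gaps of 1 to 100 bases occurred 85 times, which is 18.3% of all (Wilson interval 15.1 to 22.1%). Each of the 9 following bins of 100 bases held 32 to 50 gaps, with a mean of 42.1. Because the rule itself sets the upper limit, these values are a description.

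The distribution did not step at the limit of 1000 bases. From there to 3000 bases, where the next Alu cluster no longer counted as close, the bins of 100 bases held 28 to 56 gaps and had a mean of 42.0. Beyond the first 100 bases, a gap inside the limit was thus about as frequent per base as a gap outside it. Inside the first 100 bases the counts fell with distance: 37 gaps of 1 to 20 bases, 16 of 21 to 40, 15 of 41 to 60, 8 of 61 to 80 and 9 of 81 to 100. The list held 0 overlapping pairs of Alu clusters on the same strand, so no gap was below 1.

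**Figure D2:**
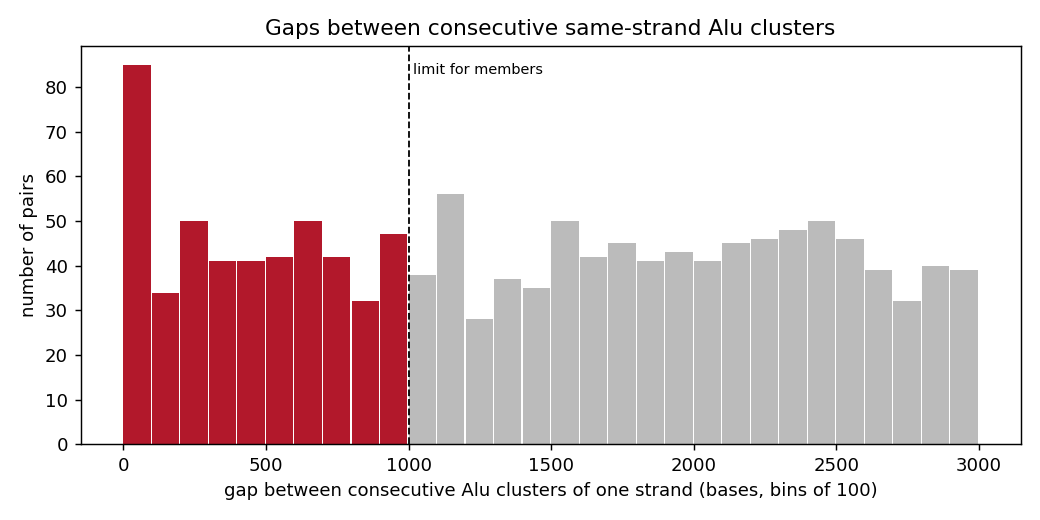
Number of gaps between consecutive Alu clusters of 1 strand in bins of 100 bases, from 1 to 3000 bases; red bars are gaps that make both clusters members, grey bars gaps over the limit (dashed line). The first bin holds 85 gaps, the other red bins 32 to 50 and the grey bins 28 to 56.

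The shortest gaps left clusters that nearly touched. A gap of 2 bases separated the pairs at 20886248 to 20886596 on chromosome 18 (minus strand), at 73671057 to 73671419 on chromosome 6 (plus strand) and at 97506559 to 97506880 on chromosome 9 (plus strand). These 3 pairs spanned 349, 363 and 322 bases. Of the 2 pairs named with gaps of 3 bases, that on chromosome 17 from 72788068 to 72788245 (plus strand) spanned just 178 bases, with clusters of 83 and 92 bases, and that on chromosome 2 from 141586051 to 141586390 (minus strand) spanned 340.

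At the other end, the longest gaps were 997 and 992 bases, both on the plus strand of chromosome 17, in the pairs that began at 12622968 and 4373415. Gaps of 991 bases on chromosome 3 (pair from 120045060 to 120046427, minus strand) and 990 bases on chromosomes 5 (from 172435611, plus strand) and X (from 74631170, minus strand) followed. The nearest pair beyond the limit, on chromosome 1 from 13832925 (minus strand), missed it by a single base. The next had gaps of 1004 bases on chromosome 1 (from 15209480, plus strand) and 1005 bases on chromosome 3 (from 173418608, plus strand). Clusters in the 3 pairs just outside were 143 to 246 bases long, within the 135 to 364 bases of the 5 pairs just inside.

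Most pairs reached over more sequence than a single Alu copy, which is about 300 bases long when complete. The outer span of 2 consecutive members exceeded 300 bases in 440 of 464 cases (94.8%, Wilson interval 92.4 to 96.5%). Even at gaps of 1 to 50 bases the lengths of both clusters summed to a median of 335 bases. This share thus follows largely from cluster length and says little about the number of Alu copies. The 24 pairs that would fit within 300 bases all had gaps of 100 bases or less and made up 28.2% of those 85 close pairs (19.8 to 38.6%). Whether the members of a close pair lay in 1 Alu copy or in adjoining copies was not tested. The distance between cluster midpoints had a median of 640 bases (600.5 to 694) and ranged from 62 to 1278.5.

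The surplus of short gaps was not limited to 1 strand or to the chromosomes richest in members. Gaps up to 100 bases made up 19.5% of 215 gaps on the plus strand (14.8 to 25.3%) and 17.3% of 249 on the minus strand (13.1 to 22.5%). The median gap was 463 bases for plus-strand and 450 bases for minus-strand groups. On chromosome 17, 8 of 45 gaps were this short, and on chromosome 19 6 of 38. Among the 328 gaps within 1000 bases between non-Alu clusters of 1 strand, 81 were of 100 bases or less (24.7%, 20.3 to 29.6%), so a high share of short gaps was also present outside the Alu class. The cluster caller's rule for joining reads, which would set the shortest gaps, is not given in the sources used here.

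Members were about as long as other Alu clusters, except where the gap was short. The median length was 190 bases for members (order-statistic interval 185 to 195), with a lowest value of 19 and a highest of 621. Other Alu clusters had a median of 193 bases (192 to 193). Members more often measured under 100 bases, with 77 of 912 (8.44%) against 1016 of 19288 (5.27%), a difference of 3.18 percentage points (Newcombe 95% interval 1.51 to 5.18). The share longer than 300 bases was 3.51% in members and 4.04% in the others, a difference of -0.54 points with an interval from -1.59 to 0.89.

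Members beside a gap of 100 bases or less were more often short than those with wider gaps. The 169 members whose nearest gap was that short had a median length of 156 bases (147 to 177), and 35 of them, or 20.7%, were under 100 bases, which is 15.4 points above the other Alu clusters (10.0 to 22.2). For the remaining 743 members the median was 195 bases (190 to 198) and 42, or 5.65%, were under 100 bases, 0.39 points above the others with an interval from -1.09 to 2.31. Lower median lengths were seen at gaps of 1 to 50 bases, with 145 bases upstream and 174.5 bases downstream (62 pairs). At gaps of 51 to 100 bases the medians were 189 and 190 bases (23 pairs). When clusters within 50 bases were merged first, the excess of short members was 0.70 points, with an interval from -0.78 to 2.60. Merging joins the closest clusters into longer ones, which in itself lowers this excess. Going by the 743 unmerged members, a member with a gap over 100 bases was not distinguishable in length from an Alu cluster without a close neighbour at this number of clusters. Read the other way, 7.04% of the Alu clusters under 100 bases were members (5.67 to 8.72%), against 3.87 to 4.66% in each longer length class from 100 bases up.

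**Figure D3:**
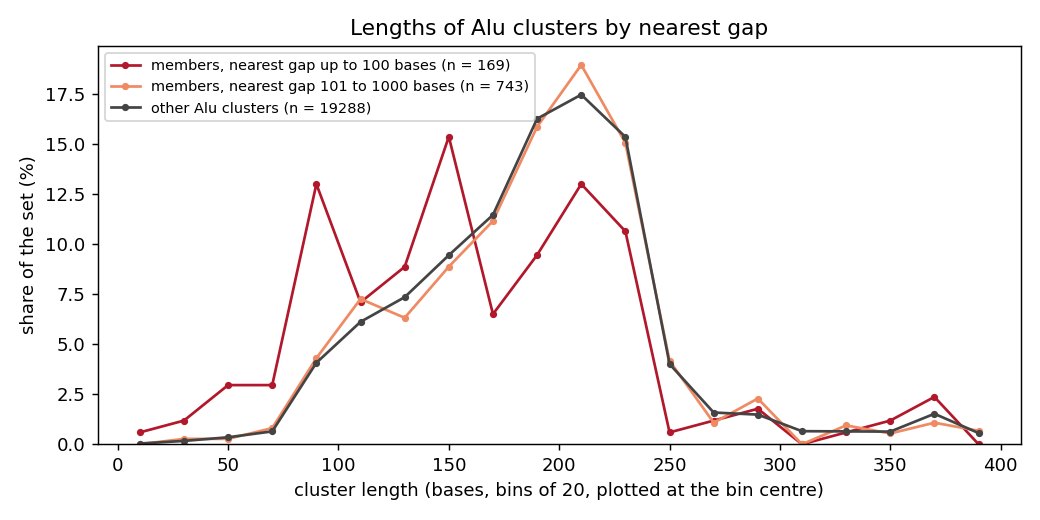
Share of clusters (%) by length in bins of 20 bases for the 169 members with a nearest gap up to 100 bases (red), the 743 members with a nearest gap over 100 bases (orange) and the 19288 other Alu clusters (grey), up to 400 bases. The red line is higher under 100 bases and lower between 180 and 240, while the orange and grey lines lie close together.

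The total of the clusters in the closest pairs was less than that of a wide pair but well above 1 cluster. With a gap of 1 to 50 bases, the summed length of both clusters had a median of 335 bases (305 to 349, 62 pairs), against 380 bases (368 to 391, 171 pairs) with a gap over 600. With a gap of 51 to 100 bases it was 375 bases (275 to 455, 23 pairs). The outer span of the 62 closest pairs had a median of 355.5 bases (315 to 364). Across the 464 pairs the lengths of the upstream and the downstream cluster were hardly related (Pearson's r 0.11, Spearman's rho 0.09). This is a description over pairs that share a list, and trios contribute more than 1 pair.

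In the closest pairs the downstream cluster, the one nearer the 3′ end of the RNA, was more often the longer. It was longer in 43 of 62 pairs with a gap of 1 to 50 bases (69.4%, Wilson interval 57.0 to 79.4%), with medians of 145 bases upstream and 174.5 bases downstream. At gaps over 600 bases it was longer in 90 of 171 (52.6%, 45.2 to 60.0%), with medians of 196 and 197 bases. The intervals of both shares overlap. Over all gaps the downstream cluster was longer in 257 pairs, the upstream one in 205, and both were equal in 2.

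The longest members included 1 in a close pair. A cluster of 621 bases on the plus strand of chromosome 17, from 59147181 to 59147801, had its neighbour 10 bases away. The next 4, of 384 to 387 bases, began at 18144193 on chromosome 10, 32428925 on chromosome 15, 5834835 on chromosome 4 and 39995317 on chromosome 22. Their nearest gaps were wider, from 182 to 396 bases. The longest of the other Alu clusters measured 727 bases.

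Members lay in places with somewhat more Alu clusters than other Alu clusters did. Beyond the group itself, a further Alu cluster on the same strand, more than 1000 and up to 10000 bases away, was found for 311 of 912 members (34.1%, Wilson interval 31.1 to 37.2%) and for 5606 of the 19288 others (29.1%, 28.4 to 29.7%). The difference was 5.04 percentage points (Newcombe interval 1.96 to 8.24). Counted once per group, 157 of 448 groups had such a cluster (35.0%), 5.98 points above the others (1.66 to 10.6). Members of a group share their surroundings, so the interval per cluster is too narrow. When Alu clusters shorter than the median length were left out, the difference turned to -0.81 points, with an interval from -4.93 to 4.56. The next Alu cluster outside the group was a median of 16700.5 bases away for members, and the nearest one a median of 23221 bases away for the others. The count per group reaches slightly more sequence, because a group is wider than a single cluster. The shares and distances per cluster were measured from each cluster's own edges.

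The share of Alu clusters that were members was higher where more flanking Alu clusters lay on the same strand. Of 5984 Alu clusters with 0 others more than 1000 and up to 50000 bases away, 197 were members (3.29%, Wilson interval 2.87 to 3.78%). The share was 3.97% with 1 (3.51 to 4.48%), 5.56% with 2 (4.90 to 6.30%), 6.18% with 3 or 4 (5.38 to 7.07%) and 6.27% with 5 or more (4.70 to 8.31%). These 197 members had only the clusters of their own group within 50000 bases among the Alu clusters of their strand; Alu clusters of the opposite strand were not counted here. Without chromosomes 17 and 19 the shares in the same order were 2.90, 3.68, 5.28, 5.90 and 5.27%, so the highest class no longer had the highest share.

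**Figure D4:**
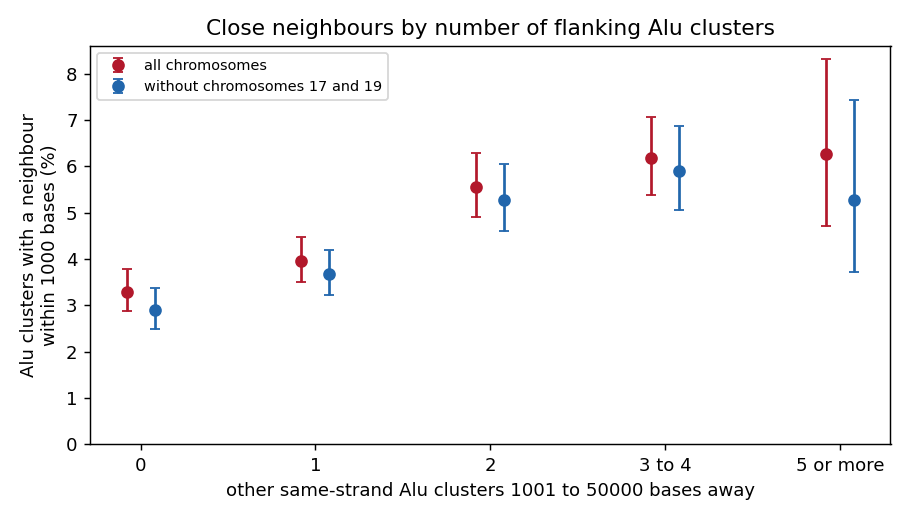
Share of Alu clusters (%) that have another Alu cluster within 1000 bases on their strand, by how many further Alu clusters lie more than 1000 and up to 50000 bases away on that strand; points are shares and bars Wilson 95% intervals, for all chromosomes (red) and without chromosomes 17 and 19 (blue). The red points go from 3.29% with 0 to 6.27% with 5 or more.

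Close Alu clusters were rarely mixed with other kinds of cluster. A non-Alu cluster on the same strand lay within 1000 bases of 1 member (0.110%, Wilson interval 0.0194 to 0.618%) and of 70 other Alu clusters (0.363%). The difference was -0.25 points with an interval from -0.38 to 0.26. That member, named after its values were seen, was on chromosome 19 (minus strand, 13338960 to 13339156). In 0 of 464 gaps was there a non-Alu cluster on the same strand (upper Wilson limit 0.821%). Of these gaps, 85 were of 100 bases or less and left little room for a cluster. Comparable stretches beside other Alu clusters were not counted. Between 1000 and 10000 bases, 4.82% of members and 3.06% of the others had a non-Alu cluster on the same strand. The difference was 1.76 points (0.52 to 3.37). Members of a group share their surroundings, so this interval per cluster is too narrow, and no count per group was made. This band was not among the values compared across settings.

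Clusters on the opposite strand were also rare. An Alu cluster of the other strand lay within 1000 bases of 6 members (0.658%) and of 133 others (0.690%), a difference of -0.03 points with an interval from -0.41 to 0.75. It overlapped 3 members (0.329%) and 115 others (0.596%), a difference of -0.27 points with an interval from -0.51 to 0.37. The 6 members formed 3 pairs, all on the minus strand, which were named after their values were seen. They began at 34278418 and 67781463 on chromosome 15 and at 70439399 on chromosome X, and in each pair 1 member overlapped the opposite-strand cluster. In the second of these, with a gap of 891 bases, the plus-strand cluster from 67782532 to 67782757 reached into the gap. Between 1000 and 10000 bases, an opposite-strand Alu cluster was found for 2.19% of members and 1.41% of the others, a difference of 0.79 points whose interval just included 0 (upper limit 1.97).

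Members were most frequent on chromosomes 19 and 17. On chromosome 19, 76 of 902 Alu clusters were members (8.43%, Wilson interval 6.78 to 10.4%), and on chromosome 17 86 of 1169 (7.36%, 6.00 to 9.00%). Both intervals lie above the 4.51% of the whole genome, but they count members of a group as independent and are too narrow. These chromosomes held 17.8% of members and 9.90% of the other Alu clusters, a difference of 7.87 points (Newcombe interval 5.48 to 10.5). They also had the most Alu clusters per length, with 15.4 and 14.5 per Mb between the first and last Alu cluster of the chromosome, against 2.54 to 13.5 on the others; the part of this density in the member share was not tested. Chromosome 22, with 13.5 per Mb, had a member share of 4.15% (2.67 to 6.39%), from 19 members in 9 groups. Its interval overlaps that of chromosome 17.

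Lower shares were found on chromosomes 11 and 6, with 23 of 882 (2.61%, 1.74 to 3.88%) and 30 of 1034 (2.90%, 2.04 to 4.11%). Chromosome 21 reached 7.11% from only 253 Alu clusters (4.55 to 11.0%), and its interval began just above the overall share. Intervals on the chromosomes other than 6, 11, 17, 19 and 21 included 4.51%. All of these intervals count the members of a group as independent and are too narrow. The members of chromosomes 6, 11 and 21 formed only 15, 11 and 9 groups. Whether their shares differ from 4.51% is therefore not settled by these intervals, and the same limit holds for the strands. Without chromosomes 17 and 19 the share was 4.14%. The plus strand carried 46.4% of members (43.2 to 49.6%) and 50.3% of the others (49.6 to 51.0%).

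**Figure D5:**
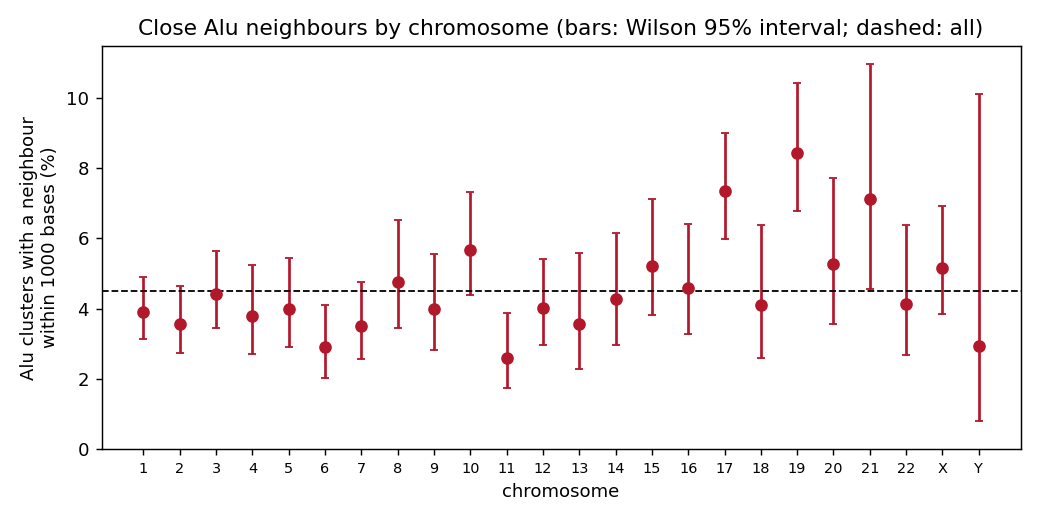
Share of the Alu clusters of each chromosome (%) that have another Alu cluster within 1000 bases on their strand; points are shares, bars Wilson 95% intervals and the dashed line the share over all chromosomes, 4.51%. Chromosomes 19 (8.43%) and 17 (7.36%) are highest and chromosome 11 (2.61%) is lowest.

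Members were found in some of the 5 Mb blocks that held Alu clusters. Of 599 blocks of 5 Mb with an Alu cluster, 270 held a member (45.1%). The share of blocks reached by equally many other Alu clusters was not counted, so this is a description. The fullest blocks, listed after their values were seen, were on chromosome 19 from 15000001 to 20000000, with 18 members among 107 Alu clusters (16.8%, lower Wilson limit 10.9%), and from 1 to 5000000, with 18 among 121 (14.9%, lower limit 9.62%). Chromosome 17 followed with 16 of 145 in its first 5 Mb and 13 of 82 from 35000001 to 40000000. The 10 blocks with the most members held 13.3% of all members and 4.61% of all Alu clusters. These blocks were picked by their member count.

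Most groups were alone in their 100 kb window, but sharing among equally many other Alu clusters was not counted. Of the windows with a group, 427 held 1, 9 held 2 and 1 held 3. The window with 3 was on chromosome 19 from 16600001, where pairs on the minus strand began at 16650043, 16662566 and 16668067. Their gaps were 695, 376 and 674 bases and their spans 1078, 826 and 1114 bases. In the chromosome 10 window from 75200001, minus-strand pairs lay from 75214743 to 75215654 and from 75292061 to 75292918, with gaps of 658 and 484 bases. No 2 pairs of the list had the same upstream length, gap and downstream length, so an exactly repeated pair was not found.

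Members in the region that chromosomes X and Y share were only partly listed on both. In build hg19 this region is placed 50000 bases lower on Y than on X. Of the pair on the minus strand of X that starts at 1617140, the first cluster overlapped a Y cluster at that offset, from 1567149 to 1567332, and the second did not. Of the pair on the plus strand of X that ends at 2684829, only the second cluster had a counterpart, from 2634624 to 2634825 on Y. Chromosome Y had a single pair, on the plus strand from 2512851 to 2514193. Its second cluster, from 2513950 to 2514193, overlapped an X cluster from 2563950 to 2564194, while its first had no counterpart on X, so that this pair was close on Y only. How reads that match both chromosomes were placed is not given in the sources used here.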

How the data were processed

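The submitters' processing notes name cutadapt 1.1 and Novoalign 2.08.22 as tools and build hg19. The authors deposited 1 list of clusters as start and end positions, with class and strand and no other measurement; for the cluster caller, the pooling of the 2 libraries and the Alu rule no source used here gives details. Positions are printed counting from 1, reading starts as counted from 0.

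Alu clusters were sorted by chromosome and strand, and clusters with a gap of at most 1000 bases were chained into groups (Python 3.11.15, pandas 2.3.3, numpy 2.4.6, scipy 1.17.1). Shares have Wilson 95% intervals, differences of shares Newcombe intervals and medians order-statistic intervals. These treat clusters as independent, cover counting error only and say nothing about the spread between cultures, so no p-value is given. Members come in groups by the rule, so intervals on counts of members are too narrow. The grouping and gap rules were tested on simulated data. The members and measures were chosen with earlier results of these data known. Regions named were every group of 4 or more, the 5 shortest and 5 longest gaps, the 3 gaps just over the limit and the 5 longest members; ties were taken in list order. The available annotation is on another build and was not used, so genes and sequences are not given. The alternatives were other neighbour distances, merging, a length filter, leaving out chromosomes and ignoring strand.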

Additional observations from a re-analysis of the deposited data

How the results depend on the processing

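Settings with neighbour distances of 500 and 2000 bases, merging within 50 bases, the length filter and leaving out chromosome Y were listed in the plan; merging within 100 bases, leaving out chromosomes 17 and 19 and ignoring strand were added with the data in view. Across 71 alternative values, 45 stayed within the interval of the main value, 25 moved outside it and 1, given below, turned from a difference whose interval excluded 0 to the opposite sign. A further 8 values, counted among the 45, changed sign where the main interval already included 0: these were the differences in median length and in opposite-strand Alu clusters. The share of Alu clusters that were members was 2.46 and 8.48% at 500 and 2000 bases, 3.92 and 3.70% after merging within 50 and 100 bases, 2.10% when Alu clusters shorter than the median were left out, 4.14% without chromosomes 17 and 19 and 5.17% with strand ignored. The median gap in the same order was 220, 954, 519, 551 and 537 bases and, with strand ignored, 388.5. The share of gaps up to 100 bases was 33.9, 9.67, 5.72, 0 and 13.1% and, with strand ignored, 27.3%. Distance limits and merging change these by construction. With strand ignored, overlapping clusters of opposite strands were counted as gaps below 1. These overlaps add to the 27.3% and lower the median of 388.5 bases. The share of groups with 2 clusters was 98.1% under the length filter. The difference in median length between members and others was -9 bases at 500 bases. The excess of clusters under 100 bases among members was 5.41 points at 500 bases. After merging within 50 and 100 bases it was 0.70 and 0.39 points with intervals that included 0, but merging in itself lengthens close clusters. Under the length filter, which removes clusters under 100 bases, it was 0. The difference in further Alu clusters at up to 10000 bases went from 5.04 to -0.81 points under the length filter, with an interval from -4.93 to 4.56 and 212 members left; the cause was not tested. It was 4.26 to 6.97 points in the other settings, with intervals above 0. No paired analysis was possible because the deposited clusters carry no mark of AB1 or AB2, which also means that neither library could be dropped. Weak clusters cannot be told from strong ones without read counts.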
